A study of Rattus norvegicus with 33 samples.

Results

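The genes described here are 38 genes known as targets of the androgen receptor in prostate cells, from the co-chaperone Fkbp5 and the protease Tmprss2 to enzymes of polyamine, lipid and sorbitol metabolism. They were taken by gene name from rat arrays that hold 34912 gene names, and each gene was read by its brightest probe. Of the 38 genes, 37 passed the filter of a signal well above background on at least 3 of the 33 arrays, among 23172 gene names that passed it. The 38 genes were taken by name, but with earlier results of these data known. The choice of the brightest probe and the filter use measured levels.

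Androgens act through the androgen receptor, a nuclear receptor that binds testosterone or the more potent dihydrotestosterone made from it by 5-alpha reductases. The receptor with its hormone enters the nucleus, binds DNA at paired half-sites beside pioneer factors such as Foxa1, and raises or lowers transcription of nearby genes. In the prostate these genes support secretion, lipid synthesis, protein folding and polyamine production, and many of them fall after castration and return when androgen is replaced.

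RNA came from prostates of male Sprague-Dawley rats raised on low phytoestrogen chow, 1 single-colour Agilent array per sample. Newborn males were injected subcutaneously with vehicle or with estradiol benzoate (EB), a long-acting estrogen, given on postnatal days (PND) 1, 3 and 5 in doses of 2.5 mg/kg. From PND 90 the T+E and EB+T+E animals carried 2 silastic implants with testosterone (T) and 1 with estradiol (E), while the control and EB animals carried 3 empty ones, so that at PND 100 and 145 the implants had been in place for 10 and 55 days. Prostates of PND 30 came from control and EB animals before any implant. The control and EB groups at PND 30 and the EB group at PND 145 held 4 arrays each, and the 7 other groups held 3. The labels mention no castration in any group.

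The protocol gives 3 to 4 litters for a group, and the p-values below measure the spread between these samples. For each gene that spread is estimated over all 10 groups together. The samples are labelled whole prostate and the series title names the dorsolateral prostate. Between 61.5% and 68.9% of spots per array were well above background. Levels are given on the log2 scale relative to the array's own 75th percentile of signal, which is 0, and a log2 ratio is the difference of 2 group means on that scale. Levels of different genes come from different probes and are not set against each other.

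Some arrays stood apart. Mean levels of 7 seminal vesicle genes were 3.58 on control array 3 of PND 100 and 3.79 on control array 2 of PND 145, against -5.62 to 0.67 on the other 31 arrays. The latter control also had a mean of 2.64 for 9 spermatid genes, which lay between -8.98 and -2.71 elsewhere. Mean levels of 11 luminal epithelial markers, among the defining genes of the secretory cells, were 1.33 to 2.99 on 31 arrays, -0.88 on EB+T+E array 1 of PND 100 and 0.85 on EB+T+E array 1 of PND 145. The 4 ventral lobe products ranged from -2.82 to 5.90 with wide spread inside groups. Calls that end without one of these arrays are named beside the results.

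Promoter sequence was examined because 18 of the 38 genes were called in a comparison of a T+E or EB+T+E group, and the receptor's half-site TGTTCT can be sought in their promoters. RefSeq windows on build GRCr8, of 250 bases before and 50 after a gene's start, were found for 31 of the 38 genes (37 windows). The half-site was searched on both strands, so that it also reads AGAACA. It lay in a window of 3 of the 31 genes (9.7%), Dbi, Elk4 and Hpgd, against 21.6% of the 27457 genes in the RefSeq table. The inverted repeat of 2 half-sites spaced by 3 bases was in 0 windows of these genes and in 5 of all 33469 windows (0.015%). Among the 14 called genes with a window, Dbi and Elk4 held a half-site. Their 250 upstream bases are printed with the half-site in capitals, beside those of Inpp4b, the gene with the largest change, which held none.
Dbi, chr13:33802619-33802868, minus strand: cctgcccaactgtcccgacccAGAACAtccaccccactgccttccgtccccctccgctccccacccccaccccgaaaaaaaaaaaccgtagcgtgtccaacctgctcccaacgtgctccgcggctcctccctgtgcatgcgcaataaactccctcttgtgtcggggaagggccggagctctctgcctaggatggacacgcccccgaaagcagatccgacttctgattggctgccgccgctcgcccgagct
Elk4, chr13:46003939-46004188, plus strand: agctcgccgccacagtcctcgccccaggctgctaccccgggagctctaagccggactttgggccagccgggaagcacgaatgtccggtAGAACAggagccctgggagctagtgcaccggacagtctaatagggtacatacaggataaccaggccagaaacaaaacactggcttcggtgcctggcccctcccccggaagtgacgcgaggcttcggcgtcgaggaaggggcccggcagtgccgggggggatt
Inpp4b, chr19:43574412-43574661, minus strand: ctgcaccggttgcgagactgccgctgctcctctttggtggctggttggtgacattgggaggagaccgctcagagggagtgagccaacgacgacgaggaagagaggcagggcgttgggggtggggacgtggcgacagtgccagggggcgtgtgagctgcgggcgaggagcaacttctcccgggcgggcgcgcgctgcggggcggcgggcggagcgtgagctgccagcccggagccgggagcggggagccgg
Counted from the start that follows the printed bases, the half-site began at base -229 in Dbi and at base -162 in Elk4. Both read AGAACA on the gene's strand. Elk4 also had windows of later starts, with upstream bases at chr13:46004440-46004689 and chr13:46004674-46004923, which each held 0 half-sites. Dbi fell and Elk4 rose after EB+T+E at PND 145, as given further on. A match is a description of letters in this window, and most androgen receptor binding in prostate cells is known from enhancers that lie outside it.

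The T+E implants added testosterone and estradiol together, and no group received testosterone alone. After T+E, 0 of 37 genes were called against control at PND 100 by limma (adjusted p under 0.05), where 0.181% of all genes tested were called, and 0 of 37 at PND 145, where 0.384% were. At an unadjusted p under 0.05 there were 2 genes at each age (5.41%), beside 8.35% and 9.85% of all genes. The median log2 ratio of the 37 genes was -0.03 at PND 100 and -0.05 at PND 145, beside -0.04 for all genes at both ages. With array weights in the fit, 1 gene was called at PND 100 and 2 at PND 145. Shares of all genes called under alternative fits or with arrays left out, here and below, are not given. Such counts therefore do not show whether the 37 genes moved more than other genes. Fkbp5, a co-chaperone of steroid receptors, had levels of 3.71, 3.79 and 3.86 under T+E at PND 100 and 3.05, 3.12 and 3.45 in control. The T+E arrays of Fkbp5 lay above the control arrays at PND 100 by a log2 ratio of 0.58 ± 0.58 (SE, adjusted p = 0.945). This SE shares the spread of all 10 groups. At PND 100 the SD of Fkbp5 was 0.07 under T+E, 0.22 in control and 1.63 in EB+T+E. At PND 145 the T+E ratio of Fkbp5 was -0.31 with overlapping arrays.

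**Figure D1:**
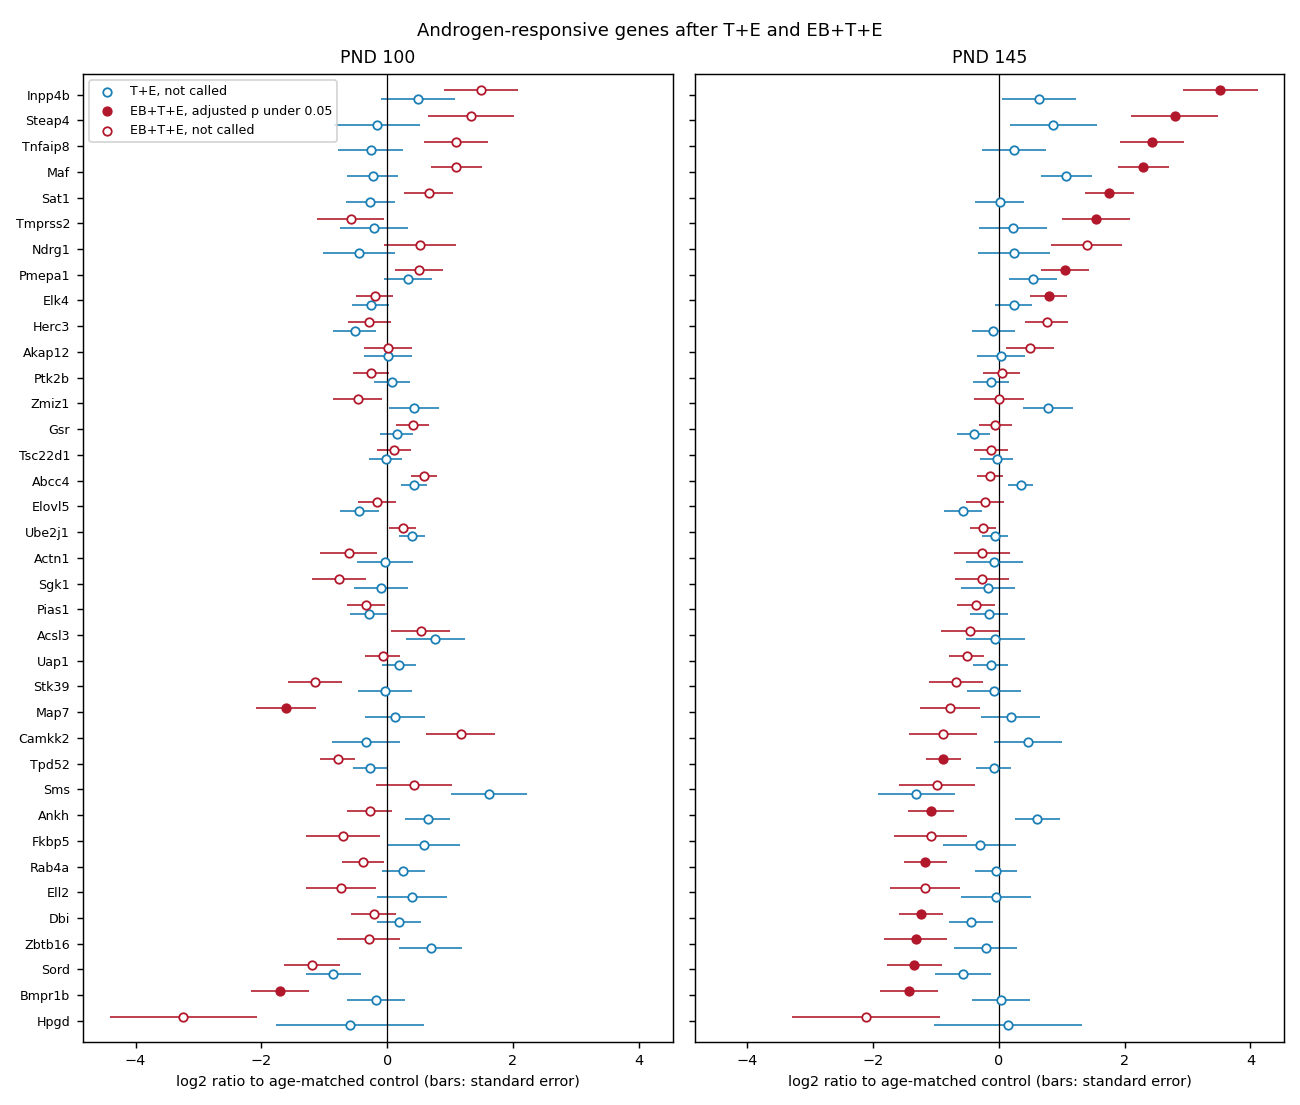
Log2 ratio to the age-matched control (x axis, bars are standard errors of the limma fit) of the 37 genes that passed the filter, with T+E in blue and EB+T+E in red, at PND 100 (left) and PND 145 (right). Filled points had an adjusted p under 0.05: 0 after T+E, 2 after EB+T+E at PND 100 and 15 after EB+T+E at PND 145.

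Sms, which makes spermine from spermidine, had the largest T+E ratio at each age, in opposite directions. Its levels under T+E at PND 100 were 1.97, 3.01 and 3.53 against 0.85, 1.16 and 1.64 in control, so that all T+E arrays were above all controls. At PND 145 they were 0.07, 0.48 and 0.71 against 1.21, 1.44 and 2.54, so that all T+E arrays were below all controls. The log2 ratio was 1.62 ± 0.60 (SE, adjusted p = 0.361) at PND 100 and -1.31 ± 0.60 (adjusted p = 0.462) at PND 145. The test of the change between ages gave -2.93 ± 0.86 (SE, adjusted p = 0.448 by limma over all genes), and 0 of 37 genes passed it, where 0.0259% of all genes did. With array weights Sms was called at both ages (adjusted p = 0.00939 and 0.0296). At each age this was the only 1 of 18 alternative fits that called it. The 3 probes of Sms gave ratios of 1.62, 1.63 and 1.72 at PND 100.

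Under T+E at PND 100, 8 of the 37 genes had all arrays above all control arrays, where 10.4% of all genes did, and 1 gene, the fatty acid elongase Elovl5, had all arrays below, where 11% did. Besides Sms and Fkbp5 the 8 were Acsl3, Abcc4, Zbtb16, Ell2, Ube2j1 and Ankh. Acsl3, an acyl-CoA synthetase, had T+E levels of -0.70, -0.32 and 0.69 against -1.0, -0.88 and -0.74, a log2 ratio of 0.76 ± 0.47 (SE, adjusted p = 0.758). Abcc4, an efflux transporter, had T+E levels of -1.32, -1.21 and -1.09 against -1.71, -1.64 and -1.57, and its ratio of 0.43 ± 0.20 (adjusted p = 0.575) was small but steady within groups. Zbtb16, a zinc finger repressor, had T+E levels of 0.89, 0.90 and 1.19 against -0.16, 0.33 and 0.73, a ratio of 0.69 ± 0.50 (adjusted p = 0.841). The lowest ratios at PND 100 were those of the sorbitol dehydrogenase Sord (-0.85 ± 0.44), Hpgd (-0.59 ± 1.18) and the ubiquitin ligase Herc3 (-0.51 ± 0.34), whose arrays overlapped with control.

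At PND 145, 4 of 37 genes had all T+E arrays above all controls (Abcc4, Maf, Camkk2 and Zmiz1), where 9.14% of all genes did, and 3 had them below (Elovl5, Sms and Gsr), where 12.7% did. Maf, a basic leucine zipper transcription factor, had T+E levels of -0.28, 0.38 and 0.61 against -0.89, -0.84 and -0.77. Its log2 ratio was 1.07 ± 0.41 (SE, adjusted p = 0.320), and with array weights it was called (adjusted p = 0.0117). Zmiz1, a coactivator of the androgen receptor, had T+E levels of 1.16, 1.31 and 1.45 against 0.45, 0.56 and 0.57, a ratio of 0.78 ± 0.40 (adjusted p = 0.534). Steap4, a metalloreductase, had T+E levels of -0.77, -0.26 and 1.62 against -0.86, -0.82 and -0.33, so that its ratio of 0.86 ± 0.69 rested on 1 array and was 0.15 without it. Elovl5 was at -5.19, -5.11 and -4.86 against -4.71, -4.57 and -4.17, a ratio of -0.57 ± 0.30 (adjusted p = 0.570). Abcc4 and Elovl5 were outside the control range in the same direction at both ages. Immune markers, 15 genes, had mean levels of -3.96 to -3.13 on the 6 T+E arrays and -4.89 to -3.73 on the 6 age-matched controls. Of the cell type lists, 1 had called genes after T+E: 5 of 9 spermatid genes were lower at PND 145, against controls that include the array rich in them.

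**Figure D2:**
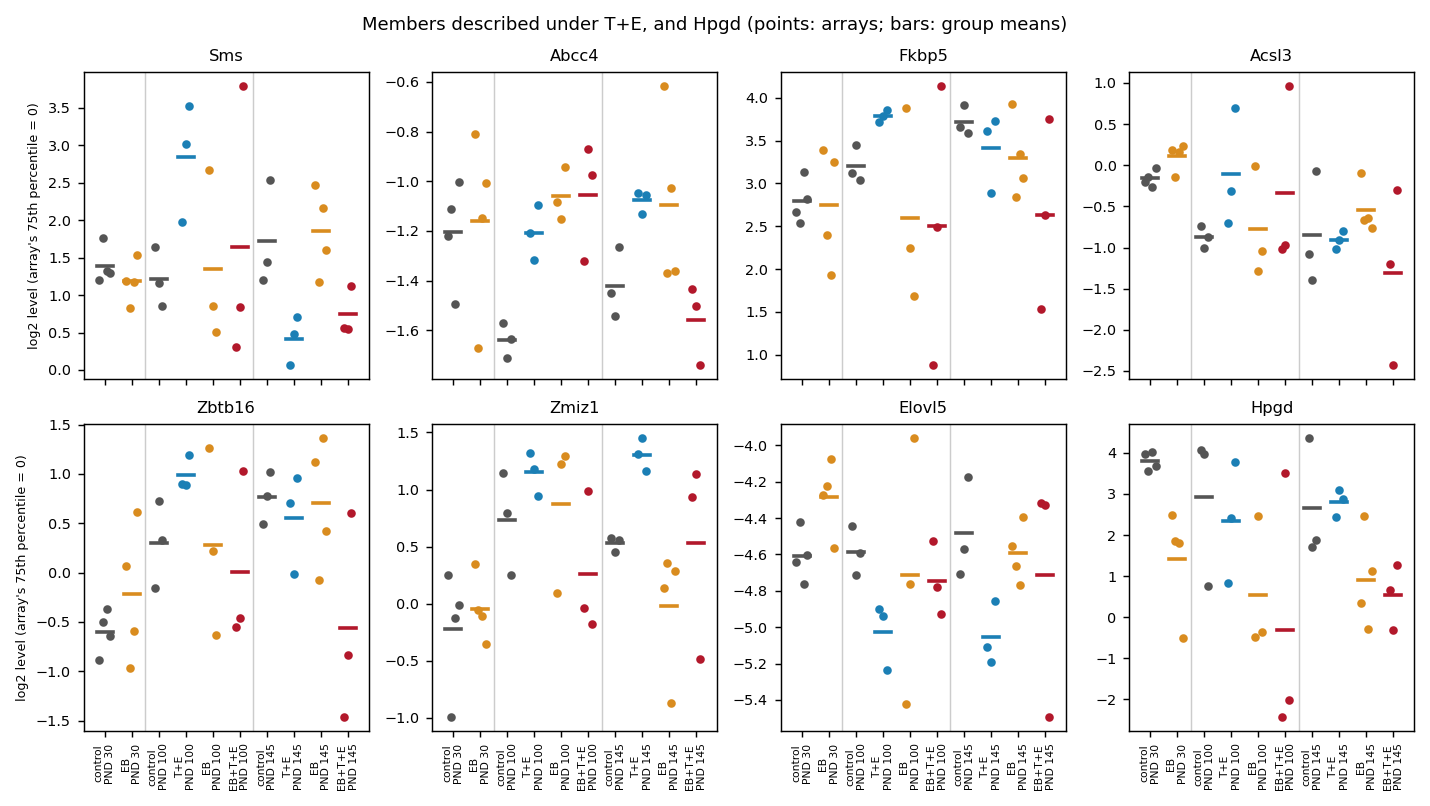
Levels of 8 genes on every array (points) with group means (bars), on the log2 scale relative to each array's 75th percentile, by group and age along the x axis. Sms lies above the PND 100 controls and below the PND 145 controls after T+E, and Hpgd spans from -2.42 to 3.52 within the EB+T+E group of PND 100.

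The combination of neonatal EB and adult T+E gave the largest shifts. At PND 145, 15 of the 37 genes (40.5%) were called against control by limma, beside 35.4% of all genes tested. Of these, 8 rose (21.6% of 37, beside 14.8% of all genes) and 7 fell (18.9%, beside 20.6%). The median log2 ratio was -0.27 for the 37 genes and -0.24 for all genes. The genes that rose were Inpp4b, Steap4, Tnfaip8, Maf, Sat1, Tmprss2, Pmepa1 and Elk4, and those that fell were Bmpr1b, Sord, Zbtb16, Dbi, Rab4a, Ankh and Tpd52. In bulk tissue fewer cells of a type and less RNA per cell cannot be told apart.

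Inpp4b, a lipid phosphatase that counters PI3-kinase signalling, rose most. Its levels on the EB+T+E arrays of PND 145 were -0.57, -0.96 and -3.07, against -4.93, -4.78 and -5.45 in control, -4.29, -3.72 and -5.24 under T+E and -4.53, -3.58, -4.34 and -3.82 under EB. All EB+T+E arrays were above all others of that age, and array 3 was much nearer to them than arrays 1 and 2. The log2 ratio to control was 3.52 ± 0.59 (SE, 11.5-fold, adjusted p = 7.9e-05), and a weaker second probe gave 3.81.

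Steap4, which reduces iron and copper at membranes, had EB+T+E levels of 2.21, 2.59 and 1.58 against -0.33, -0.82 and -0.86 in control. Its arrays did not overlap with control, and the log2 ratio was 2.79 ± 0.69 (SE, 6.93-fold, adjusted p = 0.00305). A second, much dimmer probe of Steap4 gave -0.33. Tnfaip8, an inhibitor of cell death induced by tumour necrosis factor, had levels of 0.87, 0.01 and -0.97 against -2.22, -2.29 and -2.89, and rose by 2.44 ± 0.51 (5.42-fold, adjusted p = 0.000787). Maf had levels of 1.35, 1.61 and 1.43 against -0.84, -0.77 and -0.89, the tightest of these differences, and rose by 2.30 ± 0.41 (4.92-fold, adjusted p = 0.000136). Of its other probes, 1 gave 1.64 and 1 gave -0.29.

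Sat1, the enzyme that acetylates spermidine and spermine for their breakdown, had EB+T+E levels of 1.75, 1.70 and 1.46 against 0.52, -0.58 and -0.29 in control. It rose by 1.75 ± 0.39 (SE, 3.37-fold, adjusted p = 0.00125) with no overlap. Tmprss2, a transmembrane serine protease, had levels of 2.02, 2.97 and 3.33 against 2.14, 0.80 and 0.76, so that control array 1 was above the lowest EB+T+E array. It was called with a log2 ratio of 1.54 ± 0.54 (adjusted p = 0.0282), and its second probe gave 0.79. Pmepa1, a membrane protein that dampens TGF-beta signalling, had levels of -0.23, 0.30 and 0.15 against -0.39, -1.11 and -1.41 and rose by 1.04 ± 0.38 (adjusted p = 0.0350). Elk4, an ETS transcription factor, had levels of 1.65, 1.13 and 1.11 against 0.91, -0.32 and 0.91, and its ratio of 0.79 ± 0.29 (adjusted p = 0.0369) was 0.38 and no longer called without control array 2.

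**Figure D3:**
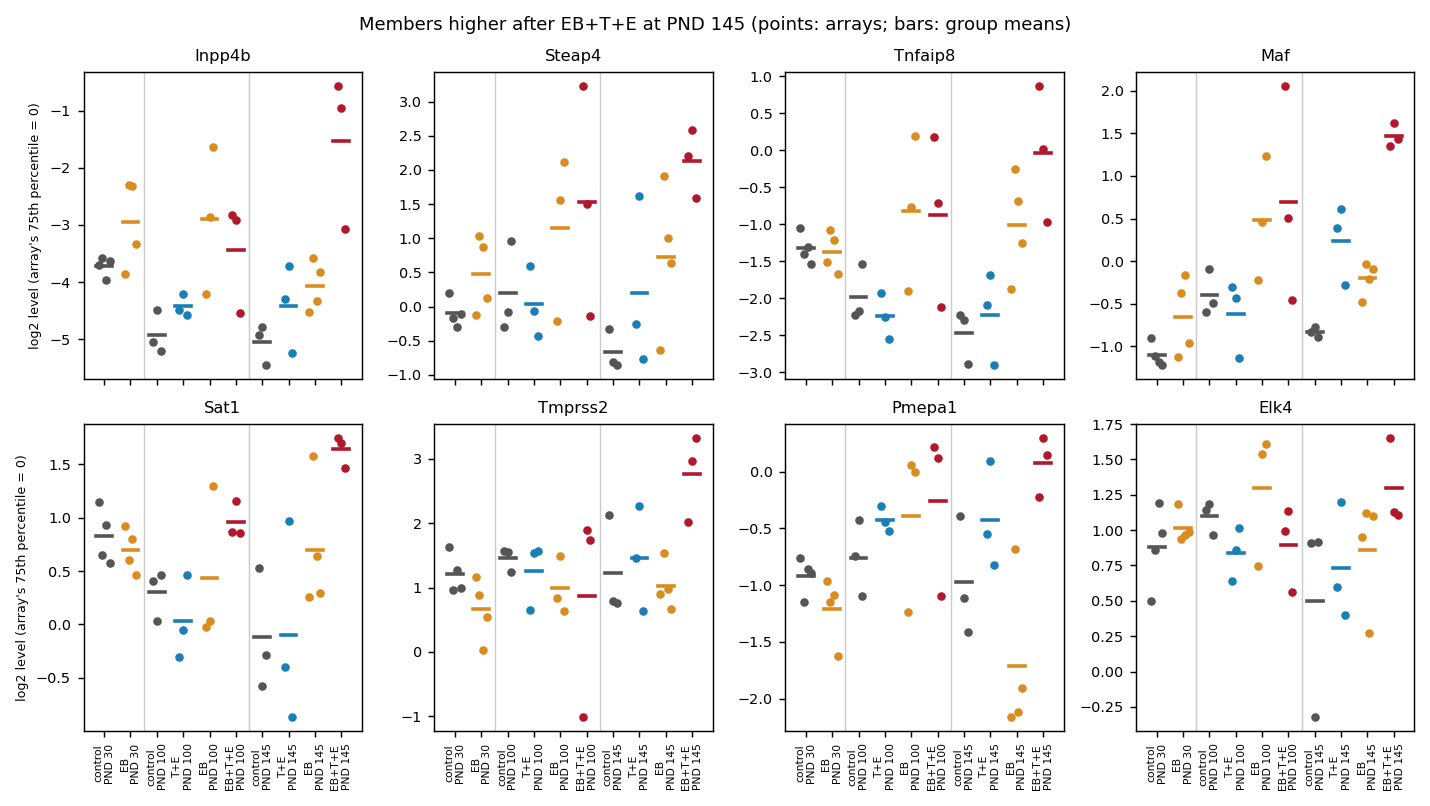
Levels on every array (points) and group means (bars) of the 8 genes that rose after EB+T+E at PND 145, on the log2 scale relative to each array's 75th percentile, by group and age along the x axis. For Inpp4b the 3 EB+T+E arrays of PND 145 lie at -3.07 and above, and all other arrays of that age at -3.58 and below.

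Among the genes that fell, Dbi, the acyl-CoA binding protein, had EB+T+E levels of 2.94, 2.72 and 3.09 against 3.95, 4.26 and 4.26 in control. It fell by 1.24 (SE 0.35, 2.36-fold, adjusted p = 0.00849) with no overlap, and its second bright probe gave -1.34. Of its 3 probes the remaining value is not given here. The ratio of Dbi ran from -1.34 to -0.86 over 18 alternative fits. Rab4a, a GTPase of endosome recycling, had levels of 0.24, 0.42 and 0.91 against 1.65, 1.75 and 1.69, and fell by 1.17 (SE 0.34, adjusted p = 0.00966). Bmpr1b, a type I receptor for bone morphogenetic proteins, had levels of -3.09, -2.51 and -1.25 against -1.0, -0.59 and -0.95. It fell by 1.44 (SE 0.46, adjusted p = 0.0184), and again array 3 was nearest to control.

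Sord, which turns sorbitol into fructose, had EB+T+E levels of -2.93, -2.62 and -3.35 against -1.96, -1.22 and -1.69 and fell by 1.34 (SE 0.44, adjusted p = 0.0212). Ankh, a transporter tied to extracellular pyrophosphate, had levels of -2.96, -2.58 and -2.98 against -1.66, -1.56 and -2.05 and fell by 1.08 (SE 0.36, adjusted p = 0.0228). Tpd52, a vesicle protein of secretory epithelium, had levels of 3.09, 3.42 and 3.90 against 4.57, 4.21 and 4.28 and fell by 0.89 (SE 0.28, adjusted p = 0.0159). In these genes the arrays of both groups were separate. Zbtb16 had levels of -1.46, -0.83 and 0.61 against 0.50, 0.77 and 1.02, with array 3 inside the control range, and fell by 1.33 (SE 0.50, adjusted p = 0.0412). Over 18 alternative fits the ratio ran from -1.10 to -0.50 for Tpd52, from -1.52 to -1.14 for Sord and from -1.91 to -0.88 for Zbtb16. Ratios of the other probes of Tpd52, Sord and Zbtb16 are not given here.

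**Figure D4:**
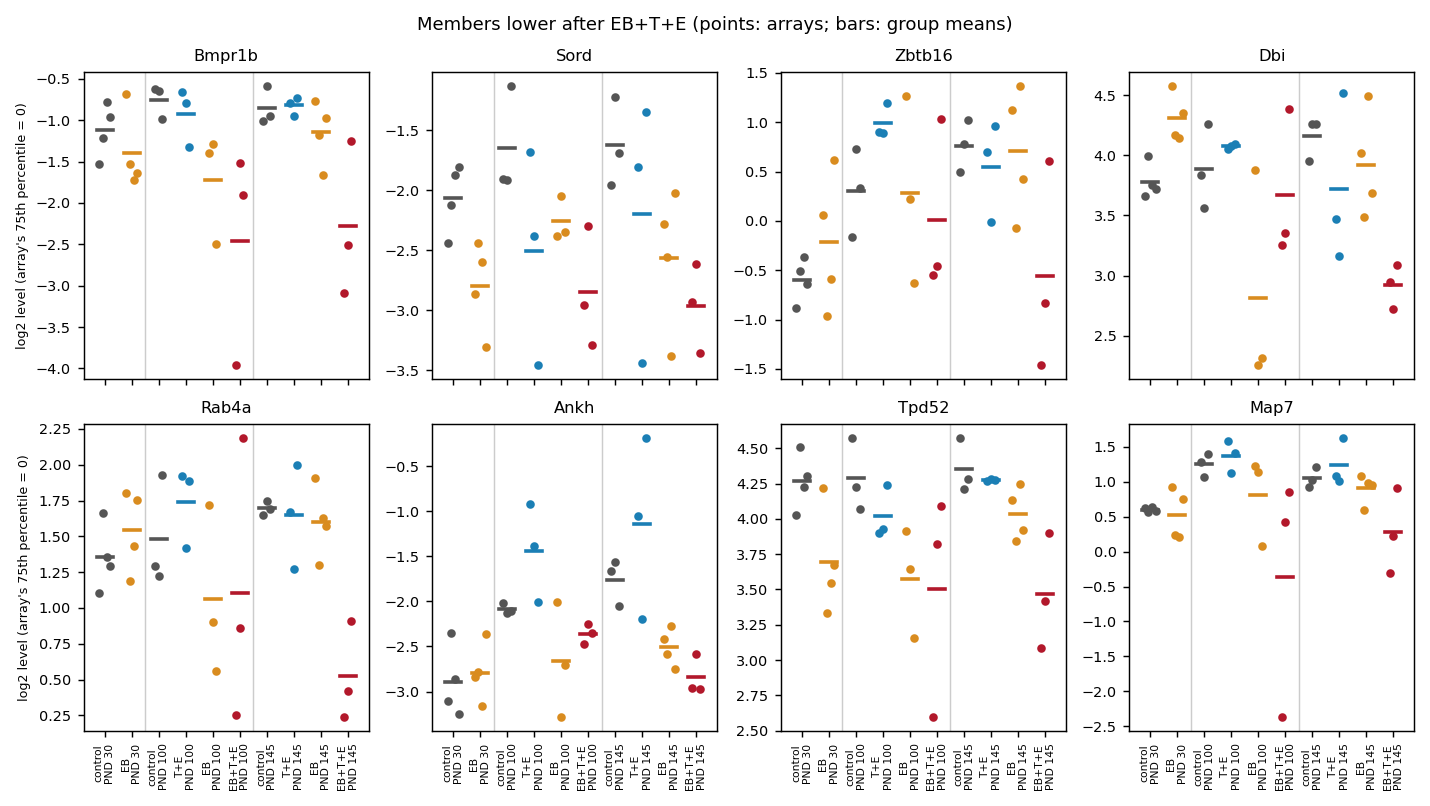
Levels on every array (points) and group means (bars) of the 7 genes that fell after EB+T+E at PND 145 and of Map7, on the log2 scale relative to each array's 75th percentile, by group and age along the x axis. Dbi lies at 2.72 to 3.09 on the EB+T+E arrays of PND 145 and at 3.95 to 4.26 on the controls.

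The 15 calls were not equally stable. Inpp4b, Steap4, Tnfaip8, Maf, Sat1 and Dbi were called in each of 18 alternative fits, Rab4a in 17 and Zbtb16 in 8. Without control array 2, the one rich in seminal vesicle and spermatid transcripts, 8 genes were called. Those that missed the threshold without it were Tmprss2 (1.33, adjusted p = 0.107), Pmepa1 (0.97, 0.0982), Elk4 (0.38, 0.325), Bmpr1b (-1.30, 0.0688), Sord (-1.14, 0.0919), Zbtb16 (-1.32, 0.0897) and Ankh (-0.98, 0.0803), each with its log2 ratio and adjusted p. Without EB+T+E array 1, which had the lowest luminal markers of its group, 8 were called as well. Those that missed it there were Elk4 (0.61, adjusted p = 0.174), Bmpr1b (-1.03, 0.134), Sord (-1.36, 0.0540), Zbtb16 (-0.88, 0.244), Rab4a (-1.03, 0.0526), Ankh (-1.02, 0.0746) and Tpd52 (-0.70, 0.101). Slides 3 and 4 held both groups, each with 1 control and 1 EB+T+E array. Within them all 15 genes kept their direction, with log2 sizes from 0.19 to 3.82. These are differences of single arrays. Slide 3 held control array 2, and control array 1 and EB+T+E array 1 were on neither slide. Other markers moved in the same comparison: 15 of 15 immune cell markers rose (median 4.71), as did 8 of 8 fibroblast markers (2.27) and 4 of 6 endothelial markers (1.75), while 6 of 11 luminal epithelial markers fell (-1.43) and 0 rose. Immune markers had mean levels of -0.16 to 1.49 on the EB+T+E arrays and -4.89 to -4.14 on the controls, and EB+T+E array 3 had the lowest immune and the highest luminal mean (2.20) of its group. Smooth muscle markers, 8 genes, had mean levels of -0.52 to 0.90 on the EB+T+E arrays and 1.06 to 1.22 on the controls. Nerve markers, 9 genes, had -2.58 to 0.36 and -3.32 to -2.84. The part of all these markers in the changes of the androgen-responsive genes was not tested.

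**Figure D5:**
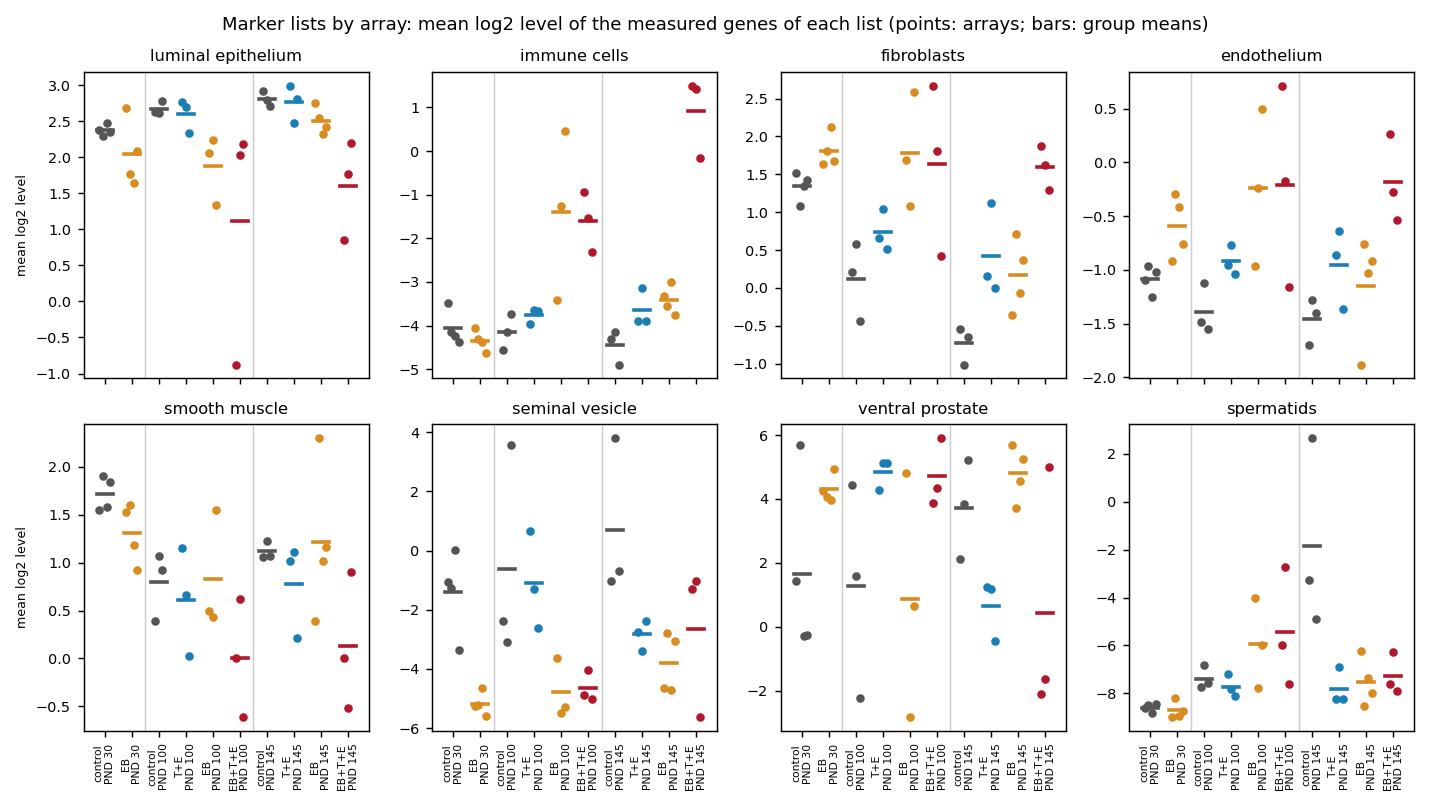
Mean log2 level of 8 marker lists on every array (points) with group means (bars), by group and age along the x axis. Immune markers lie at -0.16 to 1.49 in the EB+T+E group of PND 145 and at -4.89 to -4.14 in its controls, and seminal vesicle genes stand at 3.58 and 3.79 on 2 control arrays.

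Set against T+E alone at PND 145, which asks what neonatal EB adds, 9 of 37 genes were called (24.3%), beside 21.4% of all genes. Of these, 5 were higher, where 9.7% of all genes were, and 4 were lower, where 11.7% were. Inpp4b (2.88 ± 0.59, SE), Tnfaip8 (2.20 ± 0.51), Steap4 (1.93 ± 0.69), Sat1 (1.74 ± 0.39) and Maf (1.23 ± 0.41) rose. Ankh (-1.69 ± 0.36), Bmpr1b (-1.46 ± 0.46), Rab4a (-1.12 ± 0.34) and Tpd52 (-0.81 ± 0.28) fell. T+E levels of Ankh were -1.06, -2.19 and -0.19, all above the 3 EB+T+E arrays. Counts with 1 array left out ran from 4 (without EB+T+E array 1 or 2, or T+E array 1 or 3) to 11 (without EB+T+E array 3, or T+E array 2). The 4 that remained without EB+T+E array 1 were Inpp4b, Tnfaip8, Sat1 and Ankh. Steap4 (1.89, adjusted p = 0.120 without that array), Maf (1.28, 0.0703), Bmpr1b (-1.06, 0.173), Rab4a (-0.98, 0.0946) and Tpd52 (-0.62, 0.203) missed the threshold. Steap4 and Tpd52 were each called in 8 of 18 alternative fits, with ratios from 0.72 to 2.64 and from -1.02 to -0.44.

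Set against EB alone at PND 145, which asks what the implants add after neonatal EB, 8 of 37 genes were called (21.6%), beside 23% of all genes. Of these, 6 were higher, where 10.6% of all genes were, and 2 were lower, where 12.4% were. Inpp4b (2.54 ± 0.55, SE), Pmepa1 (1.79 ± 0.36), Tmprss2 (1.75 ± 0.50), Maf (1.67 ± 0.38), Herc3 (0.93 ± 0.32) and the tyrosine kinase Ptk2b (0.73 ± 0.27) rose, and Rab4a (-1.08 ± 0.32) and Dbi (-1.0 ± 0.33) fell. Pmepa1 had EB levels of -2.16, -0.68, -2.12 and -1.91, all below the EB+T+E arrays. Ptk2b was barely past the threshold (adjusted p = 0.0496), with EB levels of -0.21, -0.79, -1.30 and -0.45 against 0.36, 0.02 and -0.23, which overlap. Counts with 1 array left out ran from 3 (without EB+T+E array 2) through 4 and 5 (without EB+T+E array 1 and EB array 1) to 14 (without EB+T+E array 3). Without EB+T+E array 1, Inpp4b, Pmepa1, Tmprss2 and Maf remained, and Herc3 (0.88, adjusted p = 0.122), Ptk2b (0.58, 0.228), Rab4a (-0.94, 0.0915) and Dbi (-1.01, 0.0826) missed the threshold. Ptk2b was called in 7 and Herc3 in 10 of 19 alternative fits. The interaction asks whether T+E acted otherwise after EB than after vehicle. It called 0 of 37 genes at PND 145, where 0.772% of all genes were called. There, 7 genes (18.9%) had an unadjusted p under 0.05, beside 13.5% of all genes. With array weights 8 were called, a count without the share of all genes beside it. The smallest p was that of Abcc4 (-0.81 ± 0.28, adjusted p = 0.171), followed by Pmepa1 (1.25 ± 0.52) and Inpp4b (1.90 ± 0.81). At PND 100 the interaction called 0 of 37, as it did of all genes (0%), and 0 with array weights. There, 2 genes (5.41%) had an unadjusted p under 0.05, beside 8.64% of all genes.

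At PND 100, after 10 days of implants, 2 of 37 genes (5.41%) were called in EB+T+E against control, both lower, beside 12.6% of all genes. Bmpr1b had levels of -3.96, -1.52 and -1.90 against -0.62, -0.65 and -0.99 and fell by 1.71 (SE 0.46, adjusted p = 0.0166). Map7, a protein that binds microtubules, had levels of -2.37, 0.43 and 0.85 against 1.29, 1.07 and 1.40 and fell by 1.62 (SE 0.48, adjusted p = 0.0259). Array 1 was the lowest by far in both genes. Without it the log2 ratios were -0.96 (adjusted p = 0.207) and -0.61 (adjusted p = 0.309), and 0 genes were called. Without control array 3, the one rich in seminal vesicle transcripts, Bmpr1b was called (-1.83, adjusted p = 0.0342) and Map7 was not (-1.54, adjusted p = 0.0780).

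The 3 EB+T+E arrays of PND 100 disagreed in several of these genes. Fkbp5 stood at 0.88, 2.49 and 4.14, Steap4 at 3.23, 1.50 and -0.14, Tnfaip8 at 0.18, -0.71 and -2.11, Sms at 0.30, 0.84 and 3.79 and Maf at 2.05, 0.50 and -0.46. In each, array 1 was at one end and array 3 at the other, with array 3 near the T+E arrays of that age or beyond them. Luminal markers were at -0.88, 2.03 and 2.19 and immune markers at -0.94, -1.54 and -2.31 on the same arrays. Without array 3, 11 genes were called, among them Inpp4b (2.05, adjusted p = 0.0197) and Steap4 (2.17, adjusted p = 0.0237). The share of all genes called without an array is not given here. Without array 1 these were 1.19 (adjusted p = 0.364) and 0.49 (adjusted p = 0.791). Without array 2, 6 genes were called, among them Camkk2 (1.71, adjusted p = 0.0441). Without control array 1 or 2 the count was 0. In the full fit Inpp4b, with levels of -2.83, -2.91 and -4.55 against -5.06, -4.50 and -5.21, had a ratio of 1.49 ± 0.59 (SE, adjusted p = 0.0963). Steap4 had 1.34 ± 0.69 (adjusted p = 0.205), and Camkk2, a kinase upstream of AMPK, had 1.17 ± 0.54 (adjusted p = 0.157) with -3.74 on array 3 against -5.64 and -6.31 on the others. Camkk2 was well above background on 28 of 33 arrays, and the 36 other tested genes on all 33.

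By arrays that did not overlap, 2 genes were above all controls at PND 100 after EB+T+E (Abcc4 and Sat1), where 11.2% of all genes were, and 5 were below (Map7, Sord, Ankh, Bmpr1b and the actin crosslinker Actn1), where 14.9% were. Of the 15 genes called at PND 145, 13 had the same sign at PND 100 (86.7%), beside 92.3% of all 8207 genes called at PND 145, and the exceptions were Tmprss2 (-0.58 at PND 100) and Elk4 (-0.20). Tmprss2 at PND 100 was at -1.01, 1.89 and 1.74 against 1.57, 1.56 and 1.24, so its sign there came from array 1. The groups of both ages share no arrays. Against T+E at PND 100, 1 gene was called (Map7, -1.74 ± 0.48, SE, adjusted p = 0.0387), beside 3.98% of all genes, 12 without EB+T+E array 3, 4 without EB+T+E array 2 and 0 without EB+T+E array 1 or any 1 T+E array. Against EB at PND 100, 0 were called, beside 1.7% of all genes, 0 with array weights and up to 2 with 1 array left out. An unadjusted p under 0.05 was found there for 4 (10.8%), beside 15.6% of all genes.

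Neonatal EB without T+E implants moved these genes less clearly. The comparison with control called 0 of 37 at PND 30, where 0.0475% of all genes were called, 0 at PND 100, where 2.7% were, and 0 at PND 145, where 0.574% were. At an unadjusted p under 0.05 there were 5, 9 and 8 genes (13.5%, 24.3% and 21.6%), beside 11.9%, 22.3% and 15.2% of all genes. With array weights 8, 6 and 2 were called, and the shares of all genes called in that fit are not given here. Several genes of the EB+T+E set had EB ratios of the same sign. Inpp4b at PND 100 was at -4.21, -2.86 and -1.64 against -5.06, -4.50 and -5.21, a log2 ratio of 2.02 ± 0.59 (SE, adjusted p = 0.0573) without overlap. Tnfaip8 at PND 145 was at -1.87, -0.26, -0.68 and -1.25 against -2.22, -2.29 and -2.89, a ratio of 1.45 ± 0.48 (adjusted p = 0.153) without overlap. EB array 3 of PND 100, with the highest Inpp4b of its group, also had the highest immune marker mean (0.46, against -3.41 and -1.26). Its luminal mean was the lowest (1.33, against 2.05 and 2.24) and its smooth muscle mean the highest (1.55, against 0.49 and 0.43). The part of these markers in its Inpp4b level was not tested. Without EB array 1 of PND 100, 4 genes were called at that age.

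Akap12, a scaffold for protein kinase A, was at -1.85, -1.91 and -0.79 under EB at PND 100 against -2.85, -2.35 and -2.95 in control, a ratio of 1.20 ± 0.38 (SE, adjusted p = 0.0703). Sgk1, a kinase also induced by glucocorticoids, was at -2.30, -1.58 and -1.54 against -1.06, -0.37 and -0.29, a ratio of -1.23 ± 0.43 (adjusted p = 0.0917). Both had separate arrays and missed the threshold. At PND 30 the lowest p was that of Herc3 (-0.86 ± 0.30, adjusted p = 0.241).

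Hpgd, the enzyme that inactivates prostaglandins, varied most of the 37 genes, with group means from -0.31 in the EB+T+E animals of PND 100 up to 3.81 in the controls of PND 30, and a median within-group SD of 1.40. At PND 30 its control levels were 3.98, 3.55, 4.02 and 3.68 and its EB levels 2.48, 1.85, 1.81 and -0.51, all below control, with a ratio of -2.40 ± 1.02 (SE, adjusted p = 0.348). The adult controls themselves were split, at 4.06, 3.98 and 0.75 (the array rich in seminal vesicle transcripts) at PND 100 and 4.37, 1.71 and 1.89 at PND 145. After EB+T+E it had the lowest ratio of the 37 genes at both ages, -3.24 ± 1.18 (adjusted p = 0.0683) at PND 100 and -2.12 ± 1.18 (adjusted p = 0.162) at PND 145, neither past the threshold. The PND 100 value was -5.15 (adjusted p = 0.00165) without EB+T+E array 2, -4.33 (adjusted p = 0.0350) without control array 3 and -1.42 (adjusted p = 0.402) with array weights, and the PND 145 value was -2.49 (adjusted p = 0.0326) with array weights.

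Among the control animals themselves, 0 of 37 genes were called between PND 30 and PND 100, where 2.26% of all genes were. An unadjusted p under 0.05 was found for 6 (16.2%), beside 13.9% of all genes. Akap12 came nearest, from -1.08, -1.53, -1.78 and -1.39 to -2.85, -2.35 and -2.95, a ratio of -1.27 ± 0.35 (SE, adjusted p = 0.0545) without overlap. In a fit of these groups alone 6 were called, and with array weights 12, both without the share of all genes beside them. Between PND 100 and PND 145, 0 of 37 were called, as of all genes (0%), and 0 with array weights. An unadjusted p under 0.05 was found for 0, beside 2.47% of all genes.

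The 22 tested genes not called in EB+T+E against control at PND 145 ran from -2.12 (Hpgd) to 1.39 (Ndrg1). Ndrg1, a gene of differentiation and hypoxia, was at -0.89, -0.68 and -1.47 against -2.41, -2.21 and -2.60, separate arrays with a ratio of 1.39 ± 0.57 (SE, adjusted p = 0.0580). The elongation factor Ell2 (-1.18 ± 0.56, adjusted p = 0.0974) and Fkbp5 (-1.08 ± 0.58, adjusted p = 0.148) overlapped with control, and Fkbp5 stood at 3.75 on array 3 beside 1.53 and 2.63. Ratios between -0.98 and -0.46 were found for Sms, Camkk2, Map7, the kinase Stk39, the sugar nucleotide enzyme Uap1 and Acsl3. Ratios between -0.37 and 0.04 were found for the SUMO ligase Pias1, Sgk1, Actn1, the ubiquitin-conjugating enzyme Ube2j1, Elovl5, Abcc4, Tsc22d1, the glutathione reductase Gsr, Zmiz1 and Ptk2b. Akap12 had 0.49 and Herc3 0.76. Abcc4 had the narrowest span of group means of all 38 genes, 0.58 from lowest to highest.

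Mak, a kinase known from male germ cells as well as from androgen-treated prostate cells, was the only one of the 38 genes that failed the filter. It was well above background on 1 of 33 arrays, control array 2 of PND 145, at -3.58 against -7.55 or lower elsewhere. That array also had the highest spermatid markers (2.64) of the series. No ratio was tested for it.

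Other genes of the androgen pathway, from lists that are not the 38, were read the same way. These lists were chosen with earlier results of these data known, so their shares are descriptions and not independent tests. Their counts after EB+T+E stand beside 12.6% of all genes called at PND 100 and 35.4% at PND 145 (14.8% higher, 20.6% lower). Of 23 genes of the receptor and its cofactors, 0 were called after T+E at either age. After EB+T+E 4 fell and 0 rose at PND 100 (17.4%), and 9 fell and 1 rose at PND 145 (43.5%), with a median of -0.48. In the same comparisons 4 and 6 of 11 luminal markers fell, with medians of -1.45 and -1.43, and 2 genes, Foxa1 and Hoxb13, are on both lists. Their part in the counts was not tested. Foxa1, the pioneer factor, fell by 2.33 (SE 0.45, adjusted p = 0.00216) and Gata2 by 2.45 (SE 0.49, adjusted p = 0.00265) after EB+T+E at PND 100. The coactivator Ncoa4 fell by 1.50 (SE 0.40, adjusted p = 0.00527) and the co-chaperone Fkbp4 by 1.61 (SE 0.45, adjusted p = 0.00718) at PND 145.

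Of 11 genes of steroid conversion, 0 were called after T+E, 1 fell after EB+T+E at PND 100 (9.09%), and at PND 145, 2 fell and 1 rose (27.3%), both shares below those of all genes (12.6% and 35.4%). Srd5a1, a 5-alpha reductase, was at -3.76, -2.92 and -2.35 in EB+T+E at PND 145 against -1.76, -1.65 and -1.57 and fell by 1.35 (SE 0.47, adjusted p = 0.0274). Srd5a2, the other prostate 5-alpha reductase, had a ratio of 0.13 ± 0.29 there (adjusted p = 0.755). Hsd17b10, a mitochondrial dehydrogenase that can oxidise steroids, fell by 0.83 (SE 0.24, adjusted p = 0.0254) at PND 100 and by 1.21 (SE 0.24, adjusted p = 0.000498) at PND 145. The steroid sulfatase Sts rose by 1.30 (SE 0.35, adjusted p = 0.00570) at PND 145. After T+E alone the ratios of Srd5a1 were -0.59 ± 0.47 at PND 100 and -0.46 ± 0.47 at PND 145, and those of Srd5a2 0.01 ± 0.29 and -0.03 ± 0.29, none called.

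Of 19 androgen-dependent prostate products, 0 were called after T+E, 5 fell after EB+T+E at PND 100 (26.3%), and at PND 145, 6 fell and 1 rose (36.8%), beside 12.6% and 35.4% of all genes. The list shares 6 genes, Svs4 among them, with the seminal vesicle list and 4 with the ventral lobe list. The secretory product Svs4 was at 3.82, 5.48 and 3.40 in EB+T+E at PND 100 against 6.57, 6.41 and 6.64 in control and 6.65, 6.18 and 5.28 under T+E. It fell by 2.31 (SE 0.43, adjusted p = 0.00179) at PND 100. Klk1c10, a kallikrein whose probe may also read close relatives, was not well above background on any control array of PND 145 and was at least 7.09-fold higher in EB+T+E (adjusted p = 0.00264), and measured on 2 of the 3 T+E arrays. The bound sets the EB+T+E mean against the lowest signal well above background on the control arrays. The medians of this list, 0.82 and -2.94 after T+E and 0.11 and -2.36 after EB+T+E at PND 100 and 145 stand beside ventral lobe medians of 3.18 and -3.02 after T+E and 3.41 and -3.50 after EB+T+E, whose part in them was not tested.

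Polyamine metabolism, 12 genes, had 0 calls after T+E and after EB+T+E at PND 100, and 4 genes fell at PND 145 (33.3%), beside 35.4% of all genes called and 20.6% called lower. Oaz2, an antizyme that restrains ornithine decarboxylase, fell by 0.90 (SE 0.15, adjusted p = 7.8e-05). Oaz3, the antizyme of spermatids, is also on the spermatid list. It was called lower (adjusted p = 0.000921) but was well above background on 1 of the 3 EB+T+E arrays, so no size is given. Its control levels were -2.87, 2.97 and -4.48, highest on the control array with the highest spermatid markers. Of 13 genes known to rise after castration, 3 rose after EB+T+E at PND 100 (23.1%), and 8 rose and 1 fell at PND 145 (69.2%), with medians of 0.93 and 1.53, and 0 were called after T+E. Of all genes 12.6% and 35.4% were called, 14.8% as higher at PND 145. Because this list too was chosen with earlier results known, its larger shares are not independent evidence of a response like castration. The protease Ctsb rose by 1.30 (SE 0.20, adjusted p = 0.000732) and 1.21 (SE 0.20, adjusted p = 8.5e-05) at the 2 ages, Mgp, the matrix Gla protein, rose by 1.60 (SE 0.43, adjusted p = 0.0166) at PND 100, and the TGF-beta receptor Tgfbr1 by 1.17 (SE 0.20, adjusted p = 0.000109) at PND 145. Several of these genes are also made by stromal and immune cells. Fibroblast and immune markers had higher mean levels in EB+T+E than in control at both ages. Smooth muscle markers had lower ones, 0.01 against 0.79 at PND 100 and 0.13 against 1.12 at PND 145. The part of these markers in the counts was not tested. Of 14 genes induced by glucocorticoids, which share many binding sites with androgens, 1 rose at PND 100 (7.14%), 3 rose and 2 fell at PND 145 (35.7%), near or below the 12.6% and 35.4% of all genes, and 0 were called after T+E. Cebpd rose by 2.22 (SE 0.64, adjusted p = 0.0222) and 2.67 (SE 0.64, adjusted p = 0.00237), and Glul, glutamine synthetase, fell by 1.41 (SE 0.39, adjusted p = 0.00737) at PND 145.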

How the data were processed

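Each of 33 prostate RNA samples was read on a single-colour (Cy3) Agilent array of design 074036 with Feature Extraction 12.0.0.7, per the file headers. The deposited intensity values are the scanner's processed signals, background-subtracted and detrended within each array by the authors' scanner software, and the deposited flags of 0 or 1 mark spots well above background, saturated or uneven. The authors' deposited table of the same arrays was used as an alternative. From the processed signals, log2 was taken, each array's 75th percentile was subtracted, and spots of a probe were averaged. The brightest probe stood for a gene name, control spots and outlier-flagged spots were left out, and a probe had to be well above background on at least 3 arrays. Groups came from the labels. All 10 groups were fitted together with limma 3.58.1 in R 4.3.3 (moderated with trend and robust settings), in 16 comparisons, with Benjamini-Hochberg adjustment over 23172 gene names and a threshold of 0.05. The fit was tested on simulated data. The members and lists were chosen with earlier results of these data known. Genes named are those called in any comparison, the 3 highest and 3 lowest ratios after T+E and EB+T+E, and per further list up to 2 called genes of smallest p, besides Srd5a1 and Srd5a2. Some genes that this rule names are not reported here. Akap12, Sgk1, Ndrg1, Fkbp5, Ell2, Abcc4 and Mak fall outside that rule in part and were described after their values were seen. Of 65 probes of the 38 genes, 54 matched the RefSeq name of their accession, 11 had no match and 0 contradicted it. Promoter windows are RefSeq's on GRCr8, and no other coordinates were used. With 3 or 4 arrays a group, precision is limited. Alternatives were another background correction, quantile scaling, other filters, probe rules, fits and left-out arrays.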

Additional observations from a re-analysis of the deposited data

Results flagged for a closer look

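The 37 genes in the 3 groups of 4 arrays gave 111 sets of 4 levels that share the same arrays. In 7 of them 1 array lay far from the others by Dixon's criterion, which chance gives in about 1 in 20. At PND 30 control array 2 was low for Tsc22d1 (0.82, others 1.21 to 1.25) and for Actn1 (-3.52, others -1.02 to -0.81). EB arrays of PND 30 stood apart for Pias1 on array 1 (-6.64, others -5.85 to -5.78), Gsr on array 3 (-3.84, others -3.14 to -3.07) and Uap1 on array 4 (0.35, others -0.63 to -0.47). At PND 145 EB array 2 was high for Pmepa1 (-0.68, others -2.16 to -1.91) and EB array 3 was low for Camkk2 (-8.11, others -6.63 to -6.36). Pmepa1 is the only one of these genes called in a comparison that uses the group in question, EB+T+E against EB at PND 145.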

How the results depend on the processing

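The count of called genes among the 37 depended on the weights given to arrays. Shares of all genes called under the alternative fits are not given here. Counts under these fits, here and above, therefore do not show whether the 37 genes moved more than other genes. With array weights it was 1 at PND 100 and 2 at PND 145 for T+E, and 8 and 26 for EB+T+E, each against control. It was 23 against EB and 22 against T+E at PND 145, and 4 against T+E at PND 100. For EB against control it was 8, 6 and 2 at PND 30, 100 and 145, for control PND 100 against PND 30 it was 12, for the interaction at PND 145 it was 8 and for the change of the T+E effect with age 1. With slide as a block, 4 genes were called in EB+T+E against control and 4 against T+E at PND 100, and 2 in EB against control. Fitting only the groups compared gave 0 at PND 100 when EB+T+E was set against control or T+E, and 6 for control PND 100 against PND 30, where the deposited table gave 1. The mean of all probes gave 1 in EB+T+E against control and 0 against T+E at PND 100. The latter count was also 0 with normexp, with no filter and with the replicate block. Leaving out the 2 control arrays highest in seminal vesicle products, an alternative chosen after seeing the data, gave 8 in EB+T+E against control at PND 145 and 0 against T+E at PND 100. With 1 array left out the counts ran from 0 to 11 and from 8 to 14 (PND 100 and 145) when EB+T+E was set against control, from 0 to 2 and from 3 to 14 against EB, from 0 to 12 and from 4 to 11 against T+E, and from 0 to 4 for EB against control at PND 100. They were 0 to 0 in the other comparisons.

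With 1 array left out, the T+E ratio of Hpgd at PND 100 ran from -1.68 to 0.17 (positive without T+E array 1) and that of Sord at PND 145 from -1.0 to 0.042 (positive without T+E array 2). The cause was not tested. The filter of 17 arrays and naming through RefSeq changed the call of 0 of 52 gene results. Replicate numbers do not pair the samples by origin in the labels, and in 0 comparisons did every same-numbered pair correlate above 0.1. With the replicate block 16, 6 and 7 genes were called in EB+T+E against control, EB and T+E at PND 145 and 2 against control at PND 100. Under normexp the share of called genes that were higher, over all genes, was 91.7% in place of 71.4% for T+E at PND 100, 93.5% in place of 75.3% at PND 145, and 65.9% in place of 41.3% for EB+T+E against EB at PND 100, and the median of all genes moved to 0.07, 0.04 and 0.09 from -0.04, -0.04 and -0.05. Groups of 3 or 4 arrays and the spread within EB+T+E limit what could be called.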
